A study of Mus musculus with 2 samples.

Results

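The purinergic system of microglia was described here through 8 genes, chosen by symbol out of 31053 genes counted: the nucleotide receptors P2ry12, P2ry13 and P2ry6, the related receptor Gpr34, the ATP-gated channels P2rx7 and P2rx4, the nucleotide-hydrolysing enzyme Entpd1 and the adenosine receptor Adora3. All 8 had a row in both libraries. The cells came from the brain cortex of male 5xFAD hemizygous mice on the C57BL/6J strain, a transgenic model of amyloid deposition. Control mice received Visudyne (5 uL), a photosensitizer, into the cisterna magna at 4 months of age. Photoconversion mice received the same injection and then 5 steps of light at 689 nm through the skull, which ablates meningeal lymphatic vessels. Both groups were injected again after 3 weeks and taken 3 weeks later, at 5.5 months. No mouse without the 5xFAD transgenes, and none without Visudyne, was among the groups. Live CD45+CD11b+ Ly6G- single cells of 3 mice were pooled into 1 library per group, so the mice cannot be told apart and no difference between the groups has a replicate check.

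Microglia survey the brain with fine processes and read extracellular nucleotides as signals of activity and damage. ATP released by cells opens P2X channels, and ectonucleotidases such as the Entpd1 product CD39 cut it to ADP and AMP. ADP acts on the Gi-coupled receptors P2RY12 and P2RY13, UDP acts on P2RY6, and adenosine acts on receptors such as ADORA3. P2RY12 steers process extension toward injury and is widely used as a marker of homeostatic microglia. Cst7 and Apoe are widely used as genes that go up in the microglia found around amyloid plaques.

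P2ry12 and P2ry13 lie next to each other on the minus strand of chromosome 3 (GRCm38), P2ry12 at chr3:59216272-59262871 and P2ry13 at chr3:59207892-59210882, with 5389 bases between them. P2rx7 (chr5:122643911-122691432) and P2rx4 (chr5:122707544-122729738) are likewise neighbours on the plus strand of chromosome 5, 16111 bases apart. The other members are P2ry6 on the minus strand at chr7:100937630-100974649, and on the plus strand Gpr34 at chrX:13632089-13640858, Entpd1 at chr19:40612366-40741602 and Adora3 at chr3:105870858-105908926. Upstream sequences are shown from RefSeq (GRCm38.p6) for the P2ry12 and P2ry13 pair, whose levels moved together. That of P2rx4, whose level did not move with them, is shown as well. Each holds the 250 bases before the gene's RefSeq start, 5′ to 3′ on the gene's strand. These sequences lie at chr3:59262986-59263235 for P2ry12, chr3:59210883-59211132 for P2ry13 and chr5:122707294-122707543 for P2rx4. The gene spans above come from another annotation (GENCODE), and the P2ry12 sequence does not adjoin the P2ry12 span. Capitals mark GAGGAA, the core of sites of the myeloid factor PU.1, which was searched on both strands together with TGANTCA, the AP-1 site.
P2ry12: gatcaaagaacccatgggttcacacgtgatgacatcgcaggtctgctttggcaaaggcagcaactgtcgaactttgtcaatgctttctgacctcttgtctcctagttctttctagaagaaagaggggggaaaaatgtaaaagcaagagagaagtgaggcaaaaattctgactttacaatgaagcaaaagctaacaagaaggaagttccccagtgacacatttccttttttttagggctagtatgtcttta
P2ry13: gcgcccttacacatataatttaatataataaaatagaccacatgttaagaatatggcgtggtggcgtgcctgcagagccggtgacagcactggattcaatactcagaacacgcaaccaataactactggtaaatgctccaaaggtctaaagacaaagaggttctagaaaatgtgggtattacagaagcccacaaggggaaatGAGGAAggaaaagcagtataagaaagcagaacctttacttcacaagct
P2rx4: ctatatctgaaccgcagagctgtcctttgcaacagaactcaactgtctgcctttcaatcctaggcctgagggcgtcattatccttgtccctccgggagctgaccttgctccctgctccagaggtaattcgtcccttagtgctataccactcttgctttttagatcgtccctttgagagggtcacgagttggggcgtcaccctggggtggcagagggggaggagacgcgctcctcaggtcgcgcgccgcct
The P2ry13 sequence held 1 GAGGAA and no TGANTCA, and those of P2ry12 and P2rx4 held neither. Of the members not shown, Adora3 held 1 GAGGAA and 1 TGANTCA. Promoter 2 of Entpd1 held 2 GAGGAA, promoter 1 of P2rx7 held 1 TGANTCA, and the other promoters of these genes held neither. P2ry6 and Gpr34 had no promoter sequence. Among 32851 mouse promoter sequences, 23.3% held GAGGAA and 6.75% held TGANTCA in the same 250 bases. These matches describe letters in a window and were not tested for binding.

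Kept cells are barcodes in which 200 or more genes were seen and mitochondrial genes gave no more than 10% of the UMIs (unique molecular identifiers, 1 per captured RNA molecule). They were 555 of 2000 barcodes in the control library and 317 of 2000 in the photoconversion library, with 2422711 and 1816177 UMIs and medians of 2670 and 3410 UMIs per cell. The 12 microglia markers summed to 63815 CPM (UMIs of a gene per 1000000 UMIs of the library) in control and 62354 CPM in photoconversion, with none at 0. Of the markers of other cells, those of endothelial and mural cells were the most abundant, at 1073 and 1080 CPM. The 7 monocyte markers summed to 97.4 CPM in control and 26.4 CPM in photoconversion, and the 7 border macrophage markers to 39.6 and 9.91 CPM, with 1 and 2 monocyte and 1 and 4 border macrophage markers at 0. Microglia-like clusters, formed without the 8 genes, held 503 control and 288 photoconversion cells, and an unnamed cluster led by genes that include Plac8 and Ly6c2 held 8 and 0. Doublets were not removed. Among 27 barcode sequences that occur in both libraries, 11 were kept as photoconversion cells and 0 as control cells.

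All 8 genes were detected in both libraries, and 7 of 8 had a lower level in the photoconversion library. Lower levels there were common among all genes. Of the 4009 genes with at least 100 UMIs, 60.6% had a lower photoconversion over control ratio than Cx3cr1, at 1194 CPM in both. Levels are CPM of UMIs summed over kept cells, with 95% exact Poisson intervals, and each ratio is photoconversion over control with a 95% exact conditional interval. These intervals cover counting error only, not differences between mice. Levels of different genes were not ranked against each other.

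P2ry12, the ADP receptor, stood at 1905 CPM (1851 to 1961) in control and 1577 CPM (1520 to 1636) in photoconversion, a ratio of 0.828 (0.790 to 0.868). P2ry13, the other ADP receptor, had 333 CPM in control against 273 CPM in photoconversion (ratio 0.819, 0.731 to 0.917). P2ry6, the UDP receptor tied to phagocytosis, had 237 CPM in control against 172 CPM in photoconversion (ratio 0.724, 0.629 to 0.832). The photoconversion library was the lower one for each of these 3 P2Y receptors, and none of the 3 intervals held 1. Gpr34, a receptor for lysophosphatidylserine that belongs to the same receptor branch as P2RY12, stood at 1246 CPM in control and 1025 CPM in photoconversion, a ratio of 0.823 (0.776 to 0.872).

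The members with fewer counts did not separate the libraries. P2rx7, the channel that leads to inflammasome activation, had 88 and 57 UMIs, with 36.3 CPM in control and 31.4 CPM in photoconversion and a ratio of 0.864 (0.608 to 1.22). P2rx4, a channel tied to microglial reactivity after nerve injury, was the only member higher in the photoconversion library, at 99.7 CPM against 86.3 CPM, with a ratio of 1.16 (0.942 to 1.42). Entpd1 stood at 136 CPM in control and 123 CPM in photoconversion, a ratio of 0.901 (0.757 to 1.07). Adora3 had 75.5 CPM in control against 61.7 CPM in photoconversion (ratio 0.816, 0.639 to 1.04). The intervals of these 4 ratios held 1. Exons of Adora3 overlap those of Tmigd3 on the same strand, so the Adora3 counts are uncertain.

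**Figure D1:**
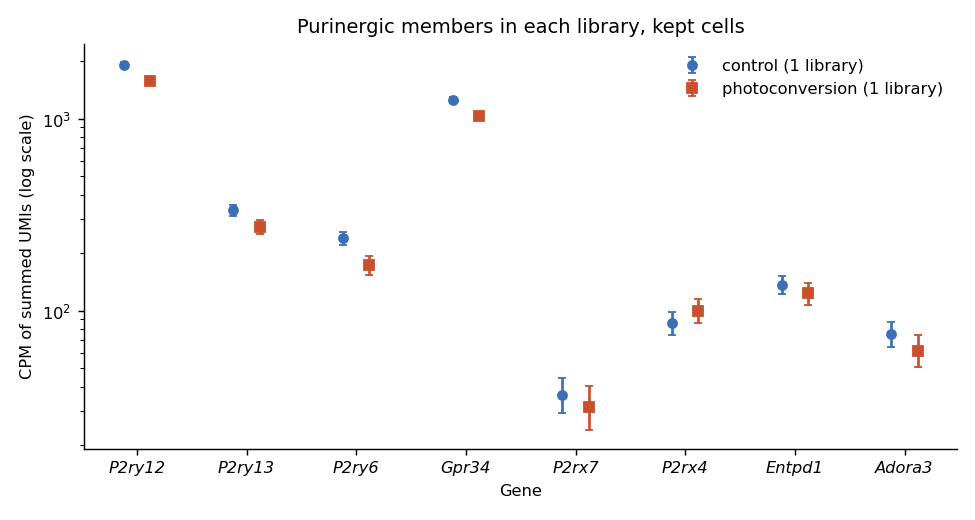
Level of each gene in the control (circles) and photoconversion (squares) library, as CPM of UMIs summed over kept cells on a log axis; bars are 95% Poisson intervals of counting error. The 4 receptors P2ry12, P2ry13, P2ry6 and Gpr34 sit lower in the photoconversion library with intervals that do not overlap, while P2rx4 is the only gene with the higher point there.

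With a ratio under 0.8 counted as lower and one over its reciprocal as higher, 1 of 8 members was lower in the photoconversion library (P2ry6) and 0 were higher. Of the 4009 genes with at least 100 UMIs, 16.3% were lower and 7.36% were higher by the same rule. That count moved with how cells were weighed. It was 5 of 8 lower and 1 higher when each cell was thinned to 1000 UMIs (a random draw of that many UMIs per cell), where 28.5% of the same 4009 genes were lower and 20.5% higher. It was 7 of 8 lower when all cells weighed equally, where 26.7% of those genes were lower. In microglia-like cells alone it was again 1 of 8 lower, and the share of all genes in those cells is not given here. The median log2 ratio of the members was -0.28, beside -0.06 over all 4009 genes. Scaling by TMM or by the median of ratios moved every log2 ratio by 0.06. The microglial genes Csf1r and Tmem119 had ratios of 0.785 and 0.899. Cx3cr1 stood at 1194 CPM in both libraries, while Cst7 and Apoe had 1.20 and 1.31.

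The photoconversion library held a smaller share of its cells at the low end of Apoe and Cst7. The group ratios of P2ry12, P2ry13, P2ry6 and Gpr34 were nearer 1 when bins of cells by these genes were weighed equally. Cells were split into 4 bins by the Apoe share of their UMIs, with limits of 0.0711%, 0.211% and 0.788% taken over both libraries. Within 10% of these limits lay 23, 20 and 20 control cells and 17, 8 and 12 photoconversion cells. Of the control cells 29.5% fell in the lowest bin (25.8 to 33.5%, 95% Clopper-Pearson), against 17.0% in photoconversion (13.1 to 21.6%). The highest bin held 20.7% and 32.5%. Cells without a Cst7 UMI made up 35.0% of control and 25.2% of photoconversion cells. With the bins weighed equally in both libraries, the P2ry12 ratio was 0.927, and with Cst7 bins weighed equally it was 0.958. P2ry13 had 0.923 and 0.943, Gpr34 had 0.913 and 0.895, and P2ry6 had 0.759 and 0.833. Entpd1 (0.952 and 0.958) and Adora3 (0.989 and 0.929) were also nearer 1. P2rx7, at 0.848 and 0.749, was further from 1, and P2rx4 had 1.17 and 1.08. Equal weights also set aside the UMI totals of the bins, which weigh in the summed levels. Within the 8 bins taken singly, P2ry12 was lower in the photoconversion library in 7, and 7 of its 8 intervals held 1. P2ry6 was lower in 6 of 8 bins, with 4 of 8 intervals holding 1, and Gpr34 was lower in 6 of 8, with 3 of 8 holding 1. The bins of the Apoe and the Cst7 split contain the same cells, so the 8 values are not independent.

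Along the Apoe share, the P2Y receptors and Gpr34 were lower in Apoe-rich cells of both libraries. Apoe encodes the lipid carrier apolipoprotein E. From the lowest to the highest bin, P2ry12 stood at 2846, 2918, 1570 and 948 CPM in control and at 2666, 2754, 1328 and 926 CPM in photoconversion. The 2 lowest bins differed little and the step lay above them, in both libraries. The ratio of the highest over the lowest bin was 0.333 (0.306 to 0.363) in control and 0.347 (0.312 to 0.387) in photoconversion.

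P2ry13 went with P2ry12, at 519, 442, 285 and 182 CPM in control and 424, 481, 258 and 154 CPM in photoconversion, with ratios of 0.351 (0.287 to 0.428) and 0.364 (0.277 to 0.480). P2ry6 showed a smaller difference, from 309 to 177 CPM in control and from 214 to 134 CPM in photoconversion, with ratios of 0.574 (0.458 to 0.718) and 0.627 (0.442 to 0.900). Gpr34 stood at 1721, 1486, 1037 and 937 CPM in control and 1490, 1552, 985 and 706 CPM in photoconversion, with ratios of 0.545 (0.495 to 0.599) and 0.474 (0.414 to 0.544). For these 4 receptors the highest bin was lower than the lowest in each library, and no interval held 1.

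The remaining members were less alike. Adora3 stood at 131 CPM in the lowest and 49.3 CPM in the highest bin of control, and at 128 and 33.0 CPM in photoconversion, with ratios of 0.376 (0.251 to 0.557) and 0.258 (0.147 to 0.453). Entpd1 stood at 172 and 116 CPM in control and 159 and 104 CPM in photoconversion, with ratios of 0.674 (0.504 to 0.902) and 0.649 (0.434 to 0.990). P2rx7 went from 55.6 to 21.1 CPM in control (ratio 0.380, 0.19996 to 0.70011), and from 36.5 to 29.4 CPM in photoconversion, from 8 and 25 UMIs, where the interval of 0.353 to 2.07 held 1. P2rx4 was the exception in control, with 68.2 CPM in the lowest and 102 CPM in the highest bin and a ratio of 1.497 (1.01 to 2.25). In photoconversion P2rx4 went from 118 to 109 CPM (ratio 0.924, 0.593 to 1.49), so its direction was not the same in both libraries.

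**Figure D2:**
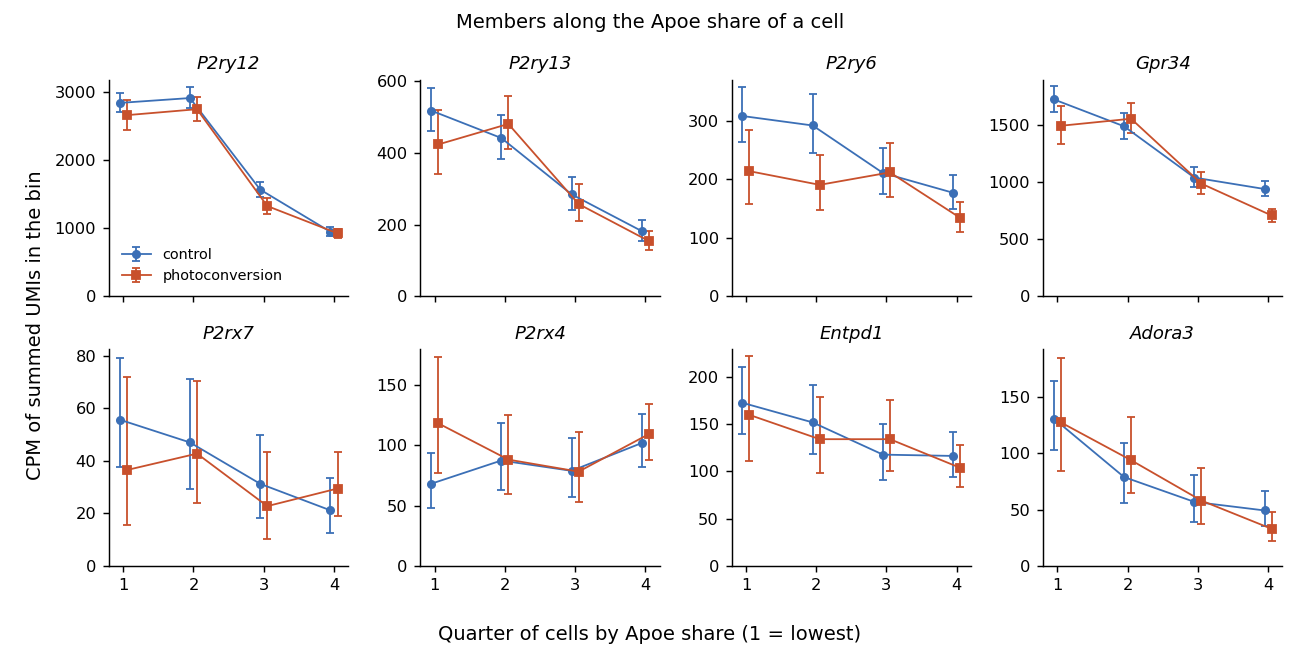
Level of each gene in 4 bins of cells by Apoe share of UMIs (x axis, 1 is the lowest), as CPM of UMIs summed in the bin; circles are control, squares photoconversion, and bars are 95% Poisson intervals of counting error. P2ry12 steps from 2918 to 1570 CPM between the second and the third bin of control, whereas P2rx4 shows no such step.

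Past a 1.5-fold difference, 6 of 8 members were lower in the highest Apoe bin of control, where 18.3% of 1539 tested genes were lower, and 6 of 8 in photoconversion, where 14.2% of 1085 tested genes were. None of the 8 was higher past this fold in either library, beside 6.11% and 9.31% of tested genes. Of the members with at least 100 UMIs in the compared bins, 5 of 7 in control and 5 of 6 in photoconversion were lower. The median log2 ratio of the 8 members was -1.13 and -0.88, beside -0.16 and 0.01 over the tested genes. Tmem119, another homeostatic marker, had lower ratios than any member, at 0.207 in control and 0.175 in photoconversion, while Cx3cr1 had 0.562 and 0.703.

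The Cst7 share counts the transcripts of the protease inhibitor cystatin F. In unthinned cells it gave lower ratios than the Apoe share in both libraries for all members but P2rx4. The splits are not alike, since the first Cst7 bin holds cells without a UMI of that gene. In photoconversion cells thinned to 1000 UMIs the order was not kept for Gpr34 (0.664 along Cst7, 0.572 along Apoe) and Entpd1 (0.882 and 0.417). Cells without a Cst7 UMI were set against 3 bins of the Cst7-positive cells, with limits at 0.0956% and 0.347% of UMIs and 17 and 25 control cells and 15 and 14 photoconversion cells within 10% of them. From cells without Cst7 to the highest bin, P2ry12 stood at 3851, 2987, 1242 and 946 CPM in control and at 3589, 3036, 1184 and 878 CPM in photoconversion. The 2 libraries lay close together in each bin. The ratio of the last over the first bin was 0.246 (0.225 to 0.269) in control and 0.245 (0.219 to 0.273) in photoconversion.

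P2ry13 stood at 683, 524, 228 and 151 CPM in control and 612, 555, 188 and 151 CPM in photoconversion, with ratios of 0.221 (0.176 to 0.276) and 0.247 (0.189 to 0.324). P2ry6 stood at 390, 376, 196 and 117 CPM in control but at 388, 202, 160 and 125 CPM in photoconversion. The ends of the P2ry6 series were alike, with ratios of 0.301 (0.229 to 0.394) and 0.323 (0.235 to 0.447), and the libraries parted in the lowest bin of positive cells, where photoconversion over control was 0.538 (0.400 to 0.715). Gpr34 kept more of its level than the ADP receptors, from 1986 to 860 CPM in control and from 1673 to 753 CPM in photoconversion, with ratios of 0.433 (0.389 to 0.482) and 0.450 (0.390 to 0.520). The Gpr34 intervals lay above those of P2ry12 in both libraries, as they did along Apoe.

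Entpd1 stood at 209 CPM in cells without Cst7 and 111 CPM in the highest bin of control, and at 182 and 98.1 CPM in photoconversion, with ratios of 0.533 (0.386 to 0.740) and 0.539 (0.351 to 0.848). Adora3 stood at 159 and 42.9 CPM in control and 127 and 22.5 CPM in photoconversion, with ratios of 0.270 (0.172 to 0.420) and 0.176 (0.0897 to 0.345). P2rx7 went from 84.2 to 20.9 CPM in control (ratio 0.248, 0.129 to 0.467), and from 42.4 to 22.5 CPM in photoconversion, where 7 and 19 UMIs gave an interval of 0.213 to 1.49. P2rx4 was level, at 96.7 and 94.0 CPM in control and 97.0 and 113 CPM in photoconversion, with ratios of 0.972 (0.636 to 1.52) and 1.17 (0.685 to 2.13). The P2rx7 values rest on few UMIs, and its direction along Cst7 in control was not kept when cells were thinned to 500 UMIs (log2 ratio 0.44).

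**Figure D3:**
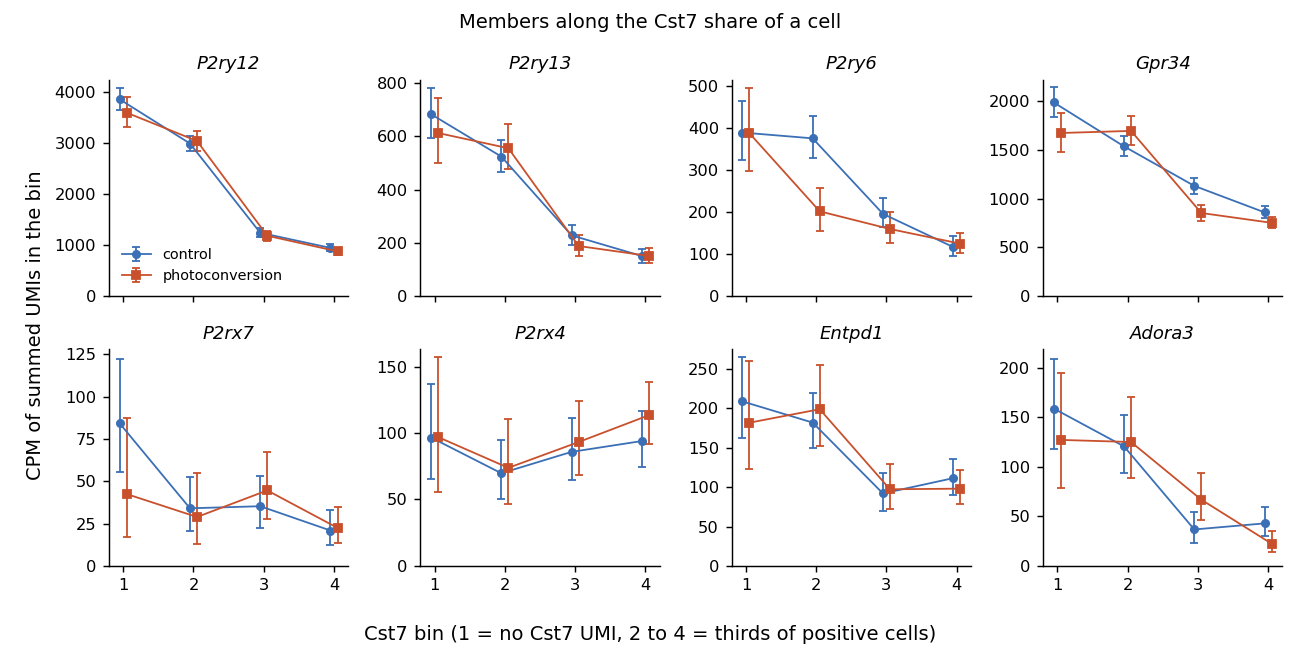
Level of each gene in cells without a Cst7 UMI (1) and in 3 bins of the Cst7-positive cells by Cst7 share (2 to 4), as CPM of UMIs summed in the bin; circles are control, squares photoconversion, and bars are 95% Poisson intervals of counting error. P2ry12 goes from 3851 to 946 CPM in control and from 3589 to 878 CPM in photoconversion, and P2rx4 stays between 69.7 and 113 CPM.

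Past 1.5-fold, 7 of 8 members were lower in the highest Cst7 bin of control, where 22.8% of 1271 tested genes were lower, and 7 of 8 in photoconversion, where 17.1% of 1043 were. None of the 8 was higher, beside 24.1% and 20.9% of tested genes. In each library 6 members had at least 100 UMIs in the compared bins, and 5 of these were lower. The median log2 ratio of the 8 members was -1.81 in control and -1.39 in photoconversion, beside 0.06 and 0.15 over the tested genes. Trem2, the receptor that microglia need to reach the plaque-associated state, was higher in the same cells, with ratios of 1.61 and 1.68.

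Depth and nuclear RNA moved with both splits. The median cell had 1187 UMIs without Cst7 and 5855 UMIs in the highest bin of control, and 1643 and 8975 UMIs in photoconversion. Malat1, a nuclear RNA, went from 32542 to 5722 CPM along Cst7 in control and from 25311 to 7177 CPM in photoconversion, and along Apoe from 18328 to 8838 CPM and from 17654 to 8587 CPM. The ribosomal protein genes went from 13.5% to 23.0% of UMIs along Cst7 in control and from 18.0% to 23.8% in photoconversion. Their part in the receptor differences was not tested beyond the values that follow, at equal depth and by Malat1 share.

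At equal depth P2ry12, P2ry13 and Gpr34 were still lower in the Apoe-rich and Cst7-rich cells of both libraries. Each cell with at least 1000 UMIs was thinned to 1000, which kept 439 control and 272 photoconversion cells and left out 116 and 45. P2ry12 was then seen in 71.1% of control cells (66.6 to 75.3%), against 82.9% unthinned, and in 70.6% of photoconversion cells (64.8 to 75.9%), against 83.3% unthinned. Gpr34 was detected in 66.5% and 63.2% of thinned cells, against 79.3% and 80.4% unthinned. P2ry13 was seen in 33.5% of the control (29.1 to 38.1%) and in 26.5% of the photoconversion cells (21.3 to 32.1%). P2ry6 was seen in 25.5% (21.5 to 29.9%) and 18.8% (14.3 to 23.9%). The libraries overlapped in their intervals for all 4 receptors. Entpd1 was detected in 17.3% and 15.1% of thinned cells, Adora3 in 10.5% and 6.62%, P2rx4 in 7.29% and 8.82% and P2rx7 in 3.87% and 3.31%, from 19 and 9 UMIs.

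As a background for detection, cells were also thinned to 500 UMIs, a depth at which cells outside the microglia-like clusters could be included. P2ry12 was detected in 61.1% of 468 microglia-like control cells and 58.1% of 279 photoconversion cells. In 54 cells of an unnamed cluster led by Gfap, Mt3 and Mbp, it was detected in 13 cells (24.1%, 13.5 to 37.6%), and the median depth there was 1103 UMIs before thinning, against 2852 and 3786 UMIs in microglia-like cells. Gpr34 was detected in 7 of those 54 cells (12.96%) against 50.4% and 41.6% of microglia-like cells. P2ry13 was found in 2 of 54 cells (3.70%) against 19.7% and 17.2%, and P2ry6 in 2 of 54 against 13.7% and 11.8%. P2rx7, Entpd1 and Adora3 were found in 0 of 54 cells (0 to 6.60%), and P2rx4 in 1. A count of 0 still allows 3 cells with a UMI (5.56%) at this depth. For P2rx7 (2.56% and 1.43% of microglia-like cells) and P2rx4 (3.63% and 6.45%) the microglia-like share did not stand clear of that background at this depth. Nor did that of Adora3, at 5.77% (3.84 to 8.28%) and 5.73% (3.31 to 9.15%). For P2ry6 the microglia-like intervals of 10.7 to 17.1% and 8.28 to 16.2% overlapped that of its 2 of 54 cells (0.452 to 12.7%). Entpd1 was detected in 9.83% (7.29 to 12.9%) and 8.60% (5.59 to 12.5%) of microglia-like cells. Its control interval lay above that of 0 of 54 cells (0 to 6.60%), while its photoconversion interval overlapped it. Since microglia markers were also detected in 54.5% of that cluster's cells on average, it is no clean zero.

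In thinned cells regrouped by their thinned Cst7 count, P2ry12 stood at 3.84 UMIs per 1000 without Cst7 and 0.746 in the highest bin of control, a ratio of 0.194 (0.140 to 0.263), and at 3.52 and 1.04 in photoconversion, a ratio of 0.296 (0.216 to 0.397). P2ry13 had ratios of 0.274 (0.128 to 0.522) and 0.162 (0.0510 to 0.397) along Cst7, and 0.523 (0.335 to 0.791) and 0.417 (0.221 to 0.747) along Apoe. Gpr34 had 0.419 (0.304 to 0.567) in control and 0.664 (0.474 to 0.916) in photoconversion. Along the thinned Apoe count, P2ry12 had 0.282 (0.224 to 0.352) and 0.346 (0.268 to 0.442), and Gpr34 had 0.449 (0.354 to 0.563) and 0.572 (0.425 to 0.764). P2ry6 had 0.357 (0.158 to 0.710) along Cst7 and 0.366 (0.196 to 0.638) along Apoe in control, while its photoconversion intervals of 0.258 to 1.19 and 0.308 to 1.44 held 1. Past 1.5-fold, 7 of 8 members were lower along Cst7 in thinned control cells, beside 34.6% of tested genes, and 5 of 8 in photoconversion, beside 25.6%. Along Apoe 6 of 8 were lower in control, beside 27.6% of tested genes, and 5 of 8 in photoconversion, beside 22.1%. These counts include members with fewer UMIs than the tested genes had to have. Without such members, 6 of 7 in control and 3 of 5 in photoconversion were lower along Cst7. Along Apoe it was 5 of 7 and 4 of 5. Those left out along Cst7 in photoconversion include Adora3, from 9 and 0 UMIs, and P2rx7, from 5 and 0 UMIs, whose intervals held 1. P2rx4 was higher past the fold along Apoe in thinned control cells, from 12 and 11 UMIs with an interval of 0.760 to 4.70, beside 12.4% of tested genes. None of the 8 was higher in the other 3 thinned comparisons, beside 14.1% of tested genes along Apoe in photoconversion and 22.2% and 22.6% along Cst7 in control and photoconversion.

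The number of the 8 genes seen in a thinned cell was highest in cells without Cst7. From those cells to the highest Cst7 bin it averaged 2.73, 2.40, 1.85 and 1.56 in control and 2.67, 2.01, 1.54 and 1.67 in photoconversion, where the third value was the lowest. Cells in which none of the 8 was seen made up 9.05%, 9.48%, 16.9% and 11.9% of these bins in control and 7.41%, 13.4%, 25% and 10.2% in photoconversion. Their share was thus highest in the middle bin of Cst7-positive cells and not in the top one, in both libraries. The middle and the top bin held only 65 and 59 control cells and 48 and 49 photoconversion cells. No intervals are given for these shares.

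Apoe and Cst7 were then combined in thinned cells, split at 0 or at least 1 Cst7 UMI and at the median of 2 Apoe UMIs. P2ry12 stood at 4.41 UMIs per 1000 (4.07 to 4.76) in the 148 control cells with low Apoe and no Cst7, and at 3.95 (3.52 to 4.41) in the 79 such photoconversion cells. With high Apoe alone it stood at 2.22 (1.83 to 2.66) and 2.34 (1.82 to 2.97), and with Cst7 alone at 2.25 (1.96 to 2.56) and 2.04 (1.65 to 2.49). With both it stood at 1.35 (1.16 to 1.55) in 139 control cells and 1.23 (1.04 to 1.45) in 117 photoconversion cells. P2ry12 was thus lower with either gene alone, to a like level, and lowest with both, in each library. Cells with both also held more of each gene. Mean Cst7 was 4.43 UMIs per 1000 in control and 5.17 in photoconversion, against 2.76 and 2.45 with Cst7 alone. Mean Apoe was 14.8 and 18.1, against 13.1 and 12.6 with high Apoe alone.

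Gpr34 was ordered in another way. It stood at 2.26 (2.03 to 2.52) with neither, 1.82 (1.57 to 2.10) with Cst7 alone, 1 (0.745 to 1.31) with high Apoe alone and 1.07 (0.907 to 1.26) with both in control. The photoconversion cells gave 1.72, 1.57, 1.03 and 0.838 in the same order. In control the intervals of the 2 classes with high Apoe lay below those of the 2 classes with low Apoe, whether or not Cst7 was seen. In photoconversion the intervals for Cst7 alone (1.24 to 1.98) and for high Apoe alone (0.698 to 1.48) overlapped. Adora3 was listed at 0 in the 29 photoconversion cells with high Apoe alone (0 to 0.127 UMIs per 1000). That interval holds the 0.114 seen with neither, from 9 UMIs in 79 cells, so the zero does not set these classes apart.

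**Figure D4:**
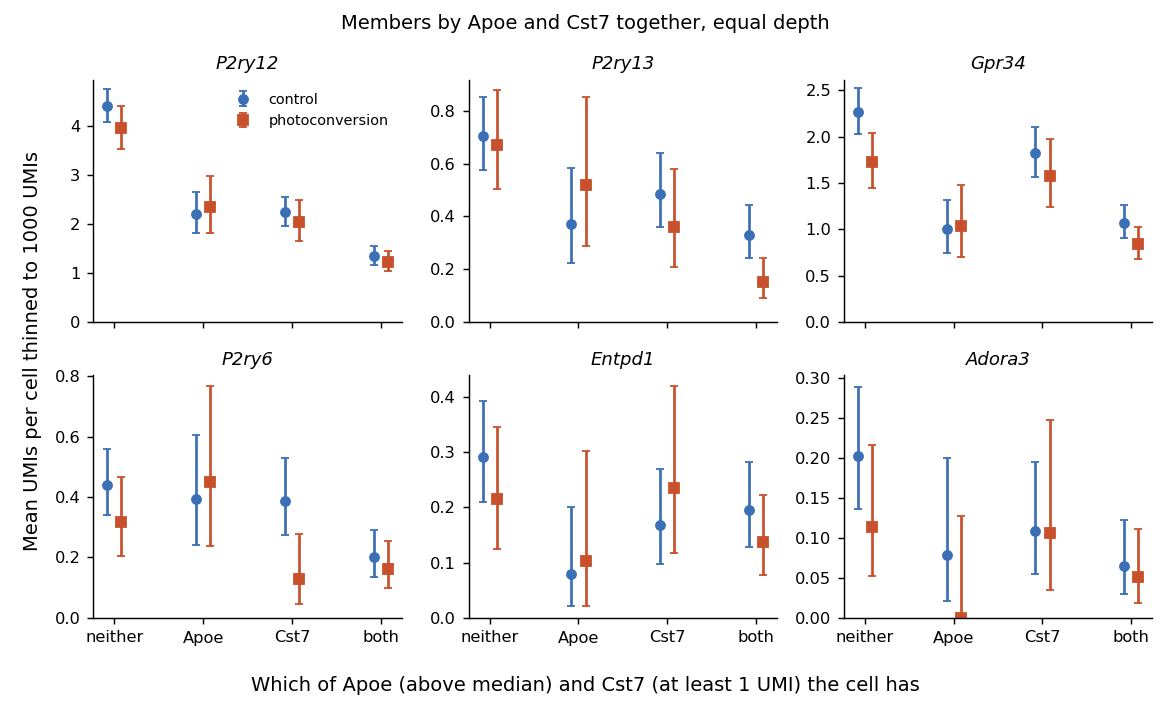
Mean UMIs per cell after thinning to 1000 UMIs, for 6 genes, in cells with neither high Apoe nor Cst7, with high Apoe alone, with Cst7 alone and with both; circles are control, squares photoconversion, and bars are 95% Poisson intervals of counting error. P2ry12 goes from 4.41 with neither to 1.35 with both in control, and Gpr34 is at 1 and 1.07 in the control classes with high Apoe.

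Split by Malat1 share, the receptor differences were wider in cells rich in this nuclear RNA. The cells were divided at the pooled median of 1.03% of UMIs. Among cells at or above it, P2ry12 stood at 3931 CPM in the lowest and 1136 CPM in the highest Apoe bin of control, a ratio of 0.289 (0.248 to 0.335), and the photoconversion ratio was 0.264 (0.226 to 0.308). Among cells below it, P2ry12 went from 1561 to 897 CPM in control (ratio 0.575, 0.506 to 0.654), with 0.702 (0.579 to 0.854) in photoconversion. Malat1-poor cells thus had less P2ry12 already where Apoe was lowest, and the difference along Apoe was smaller among them.

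Along Cst7 the P2ry12 ratios were 0.217 (0.167 to 0.277) and 0.204 (0.171 to 0.243) in Malat1-rich cells, and 0.589 (0.488 to 0.716) and 0.527 (0.424 to 0.661) in Malat1-poor cells. The highest bin held only 11 Malat1-rich control cells and 21 photoconversion cells. Gpr34 in Malat1-poor cells had Cst7 ratios of 0.879 (0.691 to 1.13) and 0.660 (0.507 to 0.871) and Apoe ratios of 0.832 (0.719 to 0.965) and 0.728 (0.580 to 0.921). P2ry6 intervals held 1 in the Malat1-poor cells of both libraries along both splits. P2ry13 intervals did so along Apoe in photoconversion (0.524 to 1.60) and along Cst7 in control (0.458 to 1.45). The part of Malat1 content in the differences of P2ry6 and P2ry13 was not tested beyond this split.

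**Figure D5:**
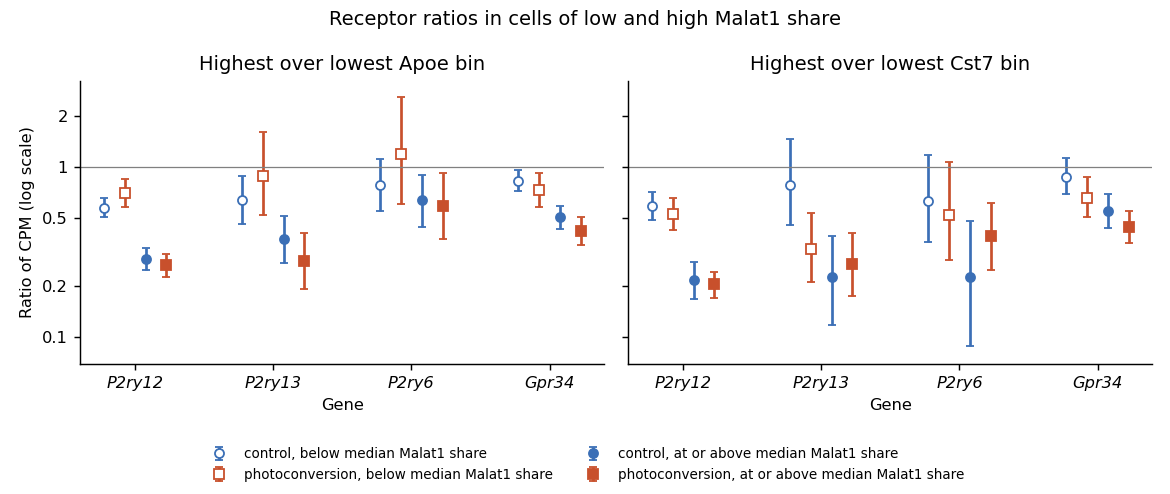
Ratio of CPM in the highest over the lowest Apoe bin (left) and in the highest Cst7 bin over cells without Cst7 (right), on a log axis, in cells below (open) and at or above (filled) the median Malat1 share; circles are control, squares photoconversion, and bars are 95% conditional intervals of counting error. The filled P2ry12 points lie between 0.204 and 0.289 and the open ones between 0.527 and 0.702.

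The clusters of microglia-like cells repeat this picture as a description, since any gene of the clustered cells shares in the clustering. P2ry12 stood at 5344 CPM in control and 4960 CPM in photoconversion in the cluster with the highest Malat1 level (cluster 0, median 1484 UMIs). It stood at 3631 and 3277 CPM in cluster 2, led by genes that include Crybb1 and Tmem119, and at 1055 and 964 CPM in cluster 1, led by genes that include Spp1 and Itgax. In cluster 3, whose leading genes include Rps26 and Rplp1 and with Malat1 at 73.4 and 789 CPM, it stood at 741 and 543 CPM. Gpr34 had the same order, at 2926, 1796, 963 and 687 CPM in control and 2844, 1613, 767 and 569 CPM in photoconversion. P2rx4 stood at 94.5 and 110 CPM in cluster 1, with its highest points of 154 and 160 CPM in cluster 0.

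Over the 16 bins of both splits and libraries, P2ry12 and P2ry13 had a Pearson r of 0.99 of log2(CPM + 10), and P2ry12 and Gpr34 had 0.97. P2ry6 was the least like P2ry12 of the 4 other members with at least 500 UMIs, at 0.85, and Entpd1 had 0.90. Among 906 other genes, those most like P2ry12 were Lpcat2, Crybb1, Selplg, Tmem119 and Cd81, with r from 0.98 to 0.99. Those most like P2ry13 were Lpcat2, Ecscr, Pla2g15, Ifngr1 and Serinc3. Gpr34 was most like Fam105a, Cd81, Serinc3, Lgmn and Lpcat2, and Entpd1 most like Tmed9, Tnfrsf1a, Vsir, Prcp and Maf, at 0.92 to 0.95. The bins share cells between the splits and share depth and Malat1 content, so these values are descriptions.

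Few other genes of the pathway were captured. Of 34 further receptors, ectonucleotidases, adenosine enzymes and transporters, 4 had at least 100 UMIs, 19 had 1 to 99 and 11 had 0, among them P2ry1, Adora2b and Nt5e, the gene for the enzyme that makes adenosine from AMP. Between the libraries 0 of the 4 passed the group fold in either direction. Their ratios were 0.865 for Pnp, which splits purine nucleosides, 0.930 and 0.913 for the nucleoside transporters Slc29a1 and Slc29a3, and 0.934 for Kcnk13, the potassium channel THIK-1. Along Apoe in control the 2 with at least 100 UMIs in the compared bins, Pnp and Slc29a3, had ratios of 0.584 (0.404 to 0.843) and 0.388 (0.257 to 0.580), both lower past 1.5-fold, beside 18.3% of all tested genes.

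Of 16 genes for G proteins and the inflammasome branch, 11 had at least 100 UMIs, and 0 were lower and 1 higher past the group fold between the libraries (Gng2, 1.27, with an interval of 0.988 to 1.62), beside the 16.3% and 7.36% of all tested genes. Gnai2, an inhibitory G protein subunit of the kind that P2RY12 uses, was at 497 CPM in control and 407 CPM in photoconversion, a ratio of 0.818 (0.745 to 0.897), and along Cst7 had 0.772 (0.642 to 0.932) and 0.666 (0.522 to 0.858). Gnas, the stimulatory subunit, went the other way along Cst7, from 761 to 2754 CPM in control and from 867 to 2366 CPM in photoconversion, with ratios of 3.62 (3.17 to 4.15) and 2.73 (2.30 to 3.26). Pycard, the inflammasome adaptor, had 1.13 (0.916 to 1.41) and 1.15 (0.872 to 1.53). Along Cst7 6 of the 16 had at least 100 UMIs in the compared bins of each library, of which 2 were higher and 0 lower past 1.5-fold in control and 1 was higher and 1 lower in photoconversion. Of all tested genes 24.1% were higher and 22.8% lower there in control, and 20.9% and 17.1% in photoconversion.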

How the data were processed

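Droplet-based single-cell RNA was measured in 2 libraries, 1 per group, each from 3 pooled mice. The authors deposited unnormalised UMI counts for each gene in each barcode, produced by Cell Ranger 3.0.2 per the file headers, with bcl2fastq and mm10 named in the submitters' processing notes. The chemistry and the strand setting of the counting are not given in the sources used here. A deposited table of the whole series was not used.

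The 8 genes and all lists were chosen with earlier results of these data known. From the counts, UMIs were summed over kept barcodes and divided by their total. With 1 library per group no test across samples was possible, so intervals at the 95% level cover counting error only. Cells were binned by Apoe or Cst7 share with limits pooled over both libraries, and genes with at least 100 UMIs in the compared bins (20 where thinned) gave the background. The group fold counted ratios under 0.8 or over the reciprocal, and the bin fold was 1.5. A count of 0.5 was added before log2 ratios. Cells were thinned without replacement (seed 1). Clusters came from scanpy 1.11.5 (2000 variable genes, 20 components, 15 neighbours, resolution 0.8), without the 8 genes. A cluster was named when 3 markers were among its 10 leading genes, or as microglia-like when microglia markers were in 50% of its cells on average and no other class led. TMM came from edgeR 4.0.16. Genes named as alike were the 5 with the highest r for each member with at least 500 UMIs. The ratio and its interval were tested on simulated counts. Thinning was checked on the control counts against the values expected from them. Alternatives were other barcode filters, depths, scalings, weights and bins. The splits by both genes, by Malat1 share, within bins and without shared barcodes were chosen after seeing the data.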

Additional observations from a re-analysis of the deposited data

How the results depend on the processing

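P2ry12, P2ry13 and Gpr34 kept their direction in all 5 comparisons under every alternative run. Of 544 alternative values, 446 stayed within the counting interval, 91 moved further and 7 that were past the fold changed sign; with those not past the fold, 27 changed sign, 18 of them of P2rx4. P2rx7 along Cst7 had log2 ratios of 0.44 in control and 0.13 in photoconversion when thinned to 500 UMIs, and in photoconversion 0.047 with the other thinning seed and 0.79 without the 10 richest cells. Along Apoe in photoconversion, without the 10 richest cells, P2ry6 and Entpd1 both had 0.21, and with cells weighed equally Entpd1 had 0.067; the lowest bin there holds 54 cells. The cause was not tested. P2rx4 had the other sign in 2 of 16 settings between the libraries, in 2 and 4 of 13 along Apoe and in 7 and 3 of 13 along Cst7 (control and photoconversion), and P2rx7 in 2 of 13 along Apoe in photoconversion.

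Members counted as lower between the libraries (1 of 8) numbered 2 without barcodes with 3 UMIs of other cell types (27.9% of the 4009 genes were lower there), 5 thinned to 1000 (28.5%), 3 thinned to 500 (31.7%), 3 with the other seed (27.2%), 4 without the 10 richest cells (30.9%) and 7 with cells weighed equally (26.7%); 1 was higher when thinned to 1000 or to 500 (20.5% and 24.3% of genes). These shares were added after seeing the data. Along Apoe in control 1 was higher, where 0 were in the report, with at most 5% mitochondrial UMIs, in microglia-like cells only, thinned to 1000, with totals without ribosomal, mitochondrial and Malat1 UMIs or without Apoe, and without the 10 richest cells. Along Apoe in photoconversion 1 was higher thinned to 500, with the other seed and without the 10 richest cells. Along Cst7 1 was higher thinned to 500 in each library, and 2 without the 10 richest cells in photoconversion. Along Apoe in control thinned to 1000, 12.4% of tested genes were higher. For the other settings along Apoe and Cst7 the share of all genes is not given here. Those counts are therefore not read as a result about the members.

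No paired analysis was possible because each group has 1 library. For the same reason no replicate was left out. Depth limits P2rx7, P2rx4 and Adora3 most: at 1000 UMIs per cell P2rx7 left 19 and 9 UMIs.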

Other observations

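In the barcodes that were not kept as cells, which held 250191 control and 222516 photoconversion UMIs, the receptors were seen as well. P2ry12 stood at 1411 CPM (1268 to 1566) in control and 1119 CPM (984 to 1267) in photoconversion, a ratio of 0.793 (0.672 to 0.935), and Gpr34 had a ratio of 0.763 (0.616 to 0.943). Entpd1 stood at 196 CPM (145 to 259) in control and 71.9 CPM (41.1 to 117) in photoconversion, from 49 and 16 UMIs, a ratio of 0.367 (0.195 to 0.657), where the kept cells gave 0.901.

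P2ry13 was seen more often in thinned cells that also had P2ry12. Of control cells with a P2ry12 UMI, 42.6% (37.1 to 48.3%) also had P2ry13, against 11.0% (6.16 to 17.8%) of those without, and in photoconversion the shares were 33.3% (26.7 to 40.5%) and 10% (4.42 to 18.8%). P2rx4 showed no such difference, at 6.73% and 8.66% in control and 8.85% and 8.75% in photoconversion. For P2rx7 in photoconversion the shares were 3.65% (1.48 to 7.37%) and 2.5% (0.304 to 8.74%), with intervals that overlapped.

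The 10 cells richest in P2rx7, of 555 control and 317 photoconversion cells, held 22.7% of its control and 40.4% of its photoconversion UMIs, which numbered 88 and 57 in all, while the 10 richest in P2ry12 held 7.89% and 12.04%.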
